A study of Mus musculus with 6 samples.

Results

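The 10 genes described here mark where a hepatocyte sits along the liver lobule. Glul, Cyp2e1, Cyp1a2 and Oat are the pericentral genes, used by hepatocytes near the central vein. Cyp2f2, Hal, Ass1, Cps1, Pck1 and Sds are the periportal genes, used near the portal vein. They were read from their rows in the count tables, 10 of the 19349 gene symbols that the 6 tables share, and followed in the cells that carried hepatocyte markers, 560 of 27544 cells kept.

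Blood enters the lobule at the portal vein and leaves at the central vein, and hepatocytes along this path divide the work between them. Periportal cells make urea from ammonia, take amino acids apart and release glucose. Pericentral cells catch the remaining ammonia as glutamine and carry many of the cytochrome P450 enzymes that oxidize drugs and lipids, a programme that Wnt signals from the central vein endothelium keep on. The steps are kept in separate cells, so single hepatocytes usually show one programme or the other.

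The 6 libraries came from liver non-parenchymal cells, a preparation meant to hold the cells of the liver other than hepatocytes, counted by the 10x Genomics Chromium droplet method. The mice were male C57BL/6J, aged 8 weeks at the start and fed a high-fat diet for 24 weeks as a model of nonalcoholic steatohepatitis. They received either the vehicle (DMSO, 3 libraries, also called the control) or ginkgetin, a plant biflavone, at 10 mg/kg/day by the intragastric route in the last 8 weeks (3 libraries). Both groups shared the diet. The labels do not say whether each library is 1 mouse, so p-values measure the spread between these libraries only.

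The hepatocyte-like cells formed 1 cluster, in which 11 of the 12 hepatocyte markers were detected and which was led by Fabp1, Bhmt, Mup20 and Akr1c6. The zonation genes had been left out of the clustering. Whether these barcodes are intact cells was not settled, since they hold few UMIs and very small mitochondrial shares, given next, and each hepatocyte-like value below is a value of these barcodes. The vehicle libraries (replicates 1, 2 and 3) held 45, 105 and 226 of these cells, and ginkgetin replicates 2 and 3 held 12 and 172. Values are given in this order throughout. Ginkgetin replicate 1 held 0 of 3493 kept cells and entered no hepatocyte comparison. Ginkgetin was therefore represented by 2 libraries, the smaller one with 12 cells and 41179 unique molecular identifiers (UMIs, 1 for each captured transcript) in all. Albumin (Alb) stood between 9488 and 19778 CPM (the UMIs of a gene per 1000000 UMIs) in the summed cells of the 5 libraries.

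These cells differed between libraries in ways other than treatment. Their median depth was 3794, 3360 and 3174 UMIs in the vehicle libraries and 2655 and 1379.5 UMIs in ginkgetin replicates 2 and 3, the last against a median of 6262 UMIs over all kept cells of the same library. The median mitochondrial share of their UMIs was 0.0953, 0.0459 and 0.305% in the vehicle libraries and 2.23 and 0.425% in the ginkgetin libraries. Markers of other cells differed too. Of 7 endothelial markers 6 or 7 were detected in each library of either group, but their summed level was 1918 and 810 CPM in the ginkgetin libraries against 29.7 to 186 CPM in the vehicle libraries. The summed level of the 7 macrophage markers ran the other way, 97.1 and 98.6 CPM against 128 to 693 CPM, with Marco at 0 in each vehicle library and Adgre1 at 0 in both ginkgetin libraries. The 6 cholangiocyte markers reached 3206 CPM in ginkgetin replicate 2, although Epcam, Krt19, Krt7 and Sox9 were at 0 in it, and stood at 74.6 to 626 CPM elsewhere. The same library had the highest summed level of plasma cell markers (510 CPM against 39.5 to 66.4 CPM elsewhere) and neutrophil markers (169.99 CPM against 14.2 to 57.3 CPM), and ginkgetin replicate 3 that of stellate markers (128 CPM against 0 to 15.8 CPM). Barcodes that carried UMIs of 2 or more markers of another class numbered 14, 26 and 66 in the vehicle libraries and 7 and 42 in the ginkgetin libraries. The part of these differences in the results that follow was not tested. Libraries shared at most 85 cell barcodes, 1.31% of the smaller library. The barcodes of replicate 3, vehicle and ginkgetin alike, were drawn from a different set than those of replicates 1 and 2, so ratios are also given set by set.

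The stretches before the start sites of the 4 pericentral genes are shown because the first comparison is about these genes. The RefSeq table (GRCm38.p6) held a start site for 8 of the 10 genes, all but Cps1 and Sds. The 250 bases before each start site are given 5′ to 3′ on the strand of the gene. Capitals mark matches, on either strand, to CTTTGA (the core of the element bound by the TCF/LEF factors of the Wnt pathway), GTTAAT (part of the element bound by the hepatocyte factor HNF1) and TATAAA (the TATA box). Glul lies on the plus strand at chr1:153899679-153899928, Cyp2e1 on the plus strand at chr7:140763569-140763818, Cyp1a2 on the minus strand at chr9:57683656-57683905 and Oat on the minus strand at chr7:132576399-132576648.
Glul: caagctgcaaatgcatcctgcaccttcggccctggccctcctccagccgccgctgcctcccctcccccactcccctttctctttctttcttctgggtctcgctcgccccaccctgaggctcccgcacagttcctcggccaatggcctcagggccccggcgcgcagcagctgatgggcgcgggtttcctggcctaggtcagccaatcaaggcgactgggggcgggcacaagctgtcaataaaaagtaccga
Cyp2e1: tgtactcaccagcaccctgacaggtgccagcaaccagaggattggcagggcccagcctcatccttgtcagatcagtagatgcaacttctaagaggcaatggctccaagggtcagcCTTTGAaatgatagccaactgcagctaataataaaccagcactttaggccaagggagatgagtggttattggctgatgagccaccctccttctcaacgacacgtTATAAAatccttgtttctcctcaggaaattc
Cyp1a2: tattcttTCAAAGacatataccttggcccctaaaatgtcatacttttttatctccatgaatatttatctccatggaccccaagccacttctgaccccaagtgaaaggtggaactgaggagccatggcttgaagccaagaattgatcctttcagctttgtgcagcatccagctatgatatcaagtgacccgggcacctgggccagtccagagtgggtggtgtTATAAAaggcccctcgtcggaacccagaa
Oat: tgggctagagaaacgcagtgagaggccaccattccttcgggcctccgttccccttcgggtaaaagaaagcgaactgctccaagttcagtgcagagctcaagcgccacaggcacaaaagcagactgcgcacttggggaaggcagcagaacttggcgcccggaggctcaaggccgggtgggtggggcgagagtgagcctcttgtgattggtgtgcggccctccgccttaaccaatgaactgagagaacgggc
Cyp2e1 held CTTTGA with its first base at -135 from the start site and TATAAA at -31, and Cyp1a2 held them at -243 and -29. The windows of Glul and Oat held none of these letters. Among the periportal genes, Hal had CTTTGA at -199 and TATAAA at -28, Pck1 had GTTAAT at -192, and Cyp2f2 and Ass1 had no match. No marked motif overlapped another. Of 32851 windows of the same length, 13.8% held CTTTGA, 6.43% held GTTAAT and 12.4% held TATAAA.

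The first comparison asked whether the pericentral genes differed in level between the vehicle and ginkgetin libraries. All 4 were higher in both ginkgetin libraries than in any vehicle library, by 4.15-fold for Glul, 9.28-fold for Cyp2e1, 19.2-fold for Cyp1a2 and 4.83-fold for Oat in the ratio of group means. None passed the threshold of edgeR's quasi-likelihood test (Benjamini-Hochberg adjusted p under 0.05 over the 4054 genes tested and a fold over 2). The test called 0 genes of 4054 (0.0%) in these cells, with 561 (13.8%) at an unadjusted p under 0.05, against 6 of the 10 zonation genes. Of all genes tested, 19.8% were higher in both ginkgetin libraries without overlap and 17.7% were lower, against 6 and 0 of these 10. All 10 genes passed the filter on low counts, which needed 26.6 CPM in 2 libraries. Cyp1a2 and Hal passed it only through the ginkgetin libraries, since 1 vehicle library reached that level. Of the genes tested, 8.61% had an unadjusted p under 0.05 with a higher level in the ginkgetin libraries and 5.23% with a lower one, and the median log2 fold change over all genes was -0.02.

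**Figure D1:**
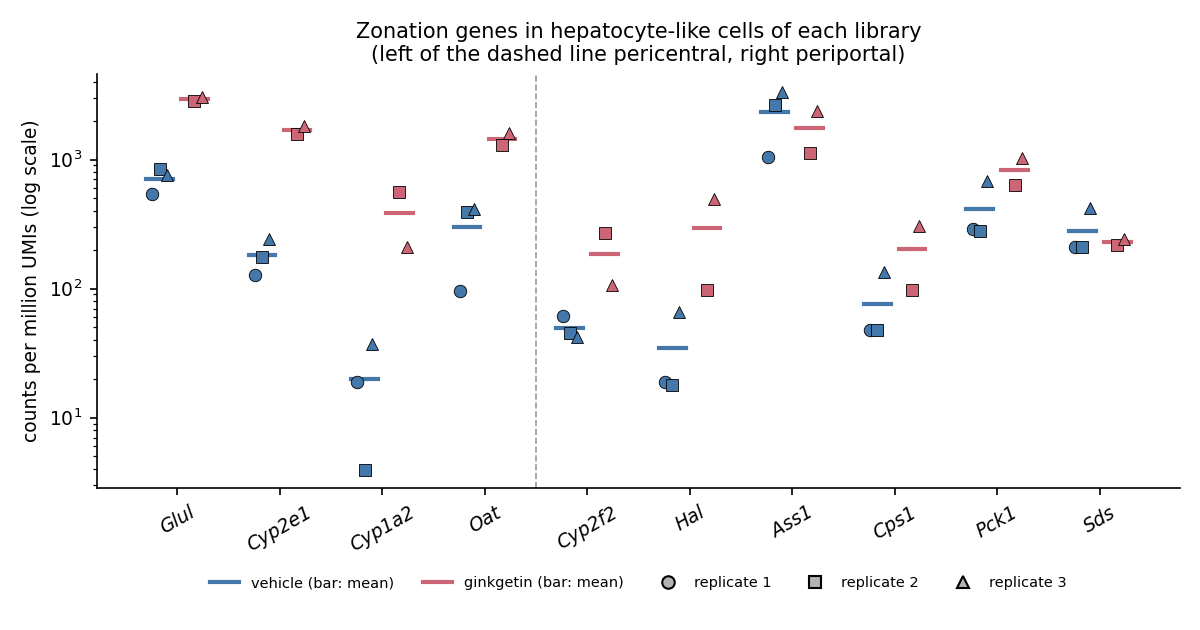
Level of each zonation gene in the summed hepatocyte-like cells of each library, in CPM on a log axis, with vehicle in blue, ginkgetin in red, a symbol for each replicate number and a bar at the group mean. Glul, Cyp2e1, Cyp1a2, Oat, Cyp2f2 and Hal do not overlap between the groups, and Ass1, Cps1, Pck1 and Sds do.

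Glul makes glutamine synthetase, which joins ammonia to glutamate in the last rows of hepatocytes before the central vein. It stood at 536, 840 and 752 CPM in the vehicle libraries and at 2841 and 3042 CPM in the ginkgetin libraries. The ginkgetin libraries lay close to each other and far above the highest vehicle library. The log2 fold change was 1.91 (SE 0.32, unadjusted p 7.05e-04, adjusted p 0.252 in edgeR). The log2 ratio was 2.02 within replicate 3, and 2.05 for ginkgetin replicate 2 against the mean of vehicle replicates 1 and 2.

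Cyp2e1 makes the P450 enzyme that oxidizes ethanol, acetaminophen and small solvents. It stood at 128, 176 and 242 CPM in the vehicle libraries and at 1578 and 1804 CPM in the ginkgetin libraries. No vehicle library came near either ginkgetin library, although 1 cell held 32 of the 65 Cyp2e1 UMIs of ginkgetin replicate 2. EdgeR gave a log2 fold change of 3.08 (SE 0.34, unadjusted p 6.35e-05, adjusted p 0.155 in edgeR), with 2.90 within replicate 3 and 3.38 against vehicle replicates 1 and 2.

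Cyp1a2 makes the P450 enzyme that clears caffeine, and was the thinnest of the pericentral genes in counts. Its 4, 2 and 43 UMIs in the vehicle libraries gave 19.0, 3.95 and 37.1 CPM, and its 23 and 79 UMIs in the ginkgetin libraries gave 559 and 210 CPM. The groups did not overlap, but both vehicle replicates 1 and 2 rested on a few molecules. The log2 fold change was 4.0 (SE 0.83, unadjusted p 0.00229, adjusted p 0.273 in edgeR), and the 2 barcode sets differed in size, 2.50 within replicate 3 against 5.61 for the other set.

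Oat makes ornithine aminotransferase, which turns ornithine toward glutamate. It stood at 94.9, 392 and 413 CPM in the vehicle libraries and at 1287 and 1609 CPM in the ginkgetin libraries. Vehicle replicate 1 was low and the other two vehicle libraries were alike. EdgeR gave a log2 fold change of 2.14 (SE 0.58, unadjusted p 0.00885, adjusted p 0.290 in edgeR), with 1.96 within replicate 3 and 2.40 for the other set.

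The periportal genes did not move as 1 group. Cyp2f2 and Hal were higher in both ginkgetin libraries than in any vehicle library, whereas Ass1, Cps1, Pck1 and Sds overlapped. Their log2 fold changes ran from -0.53 to 3.02 with a median of 1.13, against 1.91 to 4.0 and a median of 2.61 for the pericentral genes. The periportal genes are described in the order of their work, first the urea cycle, then amino acid breakdown, glucose release and the P450 enzyme.

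Ass1 makes argininosuccinate synthase, the urea cycle enzyme that joins citrulline to aspartate. It stood at 1053, 2659 and 3310 CPM in the vehicle libraries and at 1117 and 2366 CPM in the ginkgetin libraries, so that the groups lay across each other. The log2 fold change was -0.53 (SE 0.56, adjusted p 0.672 in edgeR). Cps1, the mitochondrial enzyme that starts the urea cycle from ammonia, stood at 47.5, 47.5 and 134 CPM and at 97.1 and 306 CPM, a log2 fold change of 1.37 (SE 0.64, adjusted p 0.390 in edgeR) that came to 0.09 without ginkgetin replicate 3. Ginkgetin replicate 2 lay between the vehicle libraries for this gene and rested on 4 UMIs.

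Hal makes histidine ammonia lyase, the first step of histidine breakdown. It stood at 19.0, 17.8 and 66.4 CPM in the vehicle libraries and at 97.1 and 496 CPM in the ginkgetin libraries. Each ginkgetin library was above each vehicle library, although ginkgetin replicate 2 again rested on 4 UMIs. EdgeR gave a log2 fold change of 3.02 (SE 0.79, unadjusted p 0.00732, adjusted p 0.290 in edgeR), with 2.90 within replicate 3 and 2.40 for the other set. Without 1 library at a time the log2 fold change of Hal was 1.19 to 4.12. Sds, the serine dehydratase that makes pyruvate from serine, stood at 209, 210 and 423 CPM and at 219 and 242 CPM. Both ginkgetin libraries lay within the vehicle range, and the log2 fold change was -0.40 (SE 0.41, adjusted p 0.665 in edgeR).

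Pck1 makes the cytosolic phosphoenolpyruvate carboxykinase, a rate-setting enzyme of glucose production. It stood at 289, 279 and 680 CPM in the vehicle libraries and at 631 and 1020 CPM in the ginkgetin libraries, a log2 fold change of 0.89 (SE 0.47, adjusted p 0.412 in edgeR). Vehicle replicate 3 lay above ginkgetin replicate 2, where 1 cell held 24 of the 26 Pck1 UMIs. Cyp2f2 makes a P450 enzyme known for oxidizing naphthalene. It stood at 61.7, 45.5 and 42.3 CPM in the vehicle libraries and at 267 and 107 CPM in the ginkgetin libraries, without overlap, although 1 cell held 9 of the 11 UMIs of ginkgetin replicate 2. The log2 fold change was 1.67 (SE 0.53, unadjusted p 0.0179, adjusted p 0.325 in edgeR).

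Fits with a block for the replicate number or the barcode set gave calls where the unblocked fit gave none. The replicate block fit held 2 libraries of each group, and either block leaves little to measure the spread between libraries. Whether the replicate numbers mark pairs is not stated, and the check given below did not separate them from the barcode set. With the replicate number as a block, which drops vehicle replicate 1 because it has no partner, edgeR called 90 of 4587 genes (1.96%, or 1.44% counting those higher with ginkgetin) and 3 of the 10 zonation genes, all higher. These were Cyp2e1 (log2 fold change 2.81, adjusted p 0.00276), Cyp1a2 (3.79, adjusted p 0.0052) and Hal (2.57, adjusted p 0.0133). Glul (1.68, adjusted p 0.101) and Oat (1.63, adjusted p 0.0829) did not pass in that fit. With the barcode set as a block and all 5 libraries, 75 genes (1.85%, or 1.26% higher) and 5 of these 10 were called, all higher, Glul (adjusted p 0.0126), Cyp2e1 (7.40e-04), Cyp1a2 (0.0122), Oat (0.0437) and Hal (0.0091). DESeq2's Wald test called 80 genes (1.97%, or 1.13% higher), 5 of these genes among them, and they were again Glul, Cyp2e1, Cyp1a2, Oat and Hal. None of these 3 fits called Cyp2f2, Ass1, Cps1, Pck1 or Sds. Cyp1a2 and Hal entered each of them only through the ginkgetin libraries. In replicates 1 and 2 alone, chosen after seeing the data, the lone ginkgetin library was assumed to vary like the vehicle pair, and edgeR called 152 of 2974 genes (5.11%). Of the zonation genes Glul, Cyp2e1, Cyp1a2, Oat and Cyp2f2 were among them, and Hal was not (adjusted p 0.277).

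The second comparison asked how the UMIs of the 10 genes divided between the pericentral and the periportal set. The pericentral genes held 31.7, 30.2 and 23.7% of these UMIs in the vehicle libraries and 72.1 and 59.5% in the ginkgetin libraries. The vehicle libraries averaged 28.5% ± 4.26 (SD, n = 3) and the ginkgetin libraries 65.8% ± 8.89 (SD, n = 2), a difference of 37.3 percentage points that was larger than the spread in either group. The summed pericentral level was 778, 1412 and 1444 CPM against 6265 and 6665 CPM. The summed periportal level was 1680, 3259 and 4656 CPM against 2428 and 4537 CPM and overlapped, whereas the pericentral sum stood clear between the groups. Counted by cells, those with more pericentral than periportal UMIs made up 22.2, 23.8 and 20.8% of the hepatocyte-like cells of the vehicle libraries, and 66.7 and 48.3% of those of the ginkgetin libraries, the first of these being 8 of 12 cells. Cells with more periportal than pericentral UMIs made up 66.7, 71.4 and 74.3% against 33.3 and 51.2%, so in ginkgetin replicate 3 they still outnumbered the pericentral ones, 88 to 83.

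The choice of barcodes mattered for this division. With the 5% limit on mitochondrial UMIs raised to 20%, the pericentral share was 40.6, 28.9 and 28.6% against 47.2 and 55.3%. With no filter on barcodes it was 37.1, 24.1 and 40.1% against 37.8 and 74.0%, and the groups overlapped. Without the barcodes that carried markers of another class it was 35.0, 30.6 and 29.4% in the vehicle libraries and 57.5% in ginkgetin replicate 3, the only ginkgetin library left with 10 or more cells. Under a gate of at least 10% of UMIs from the hepatocyte markers, ginkgetin replicates 2 and 3 kept 3 and 2 cells, and no division of UMIs is given for them.

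**Figure D2:**
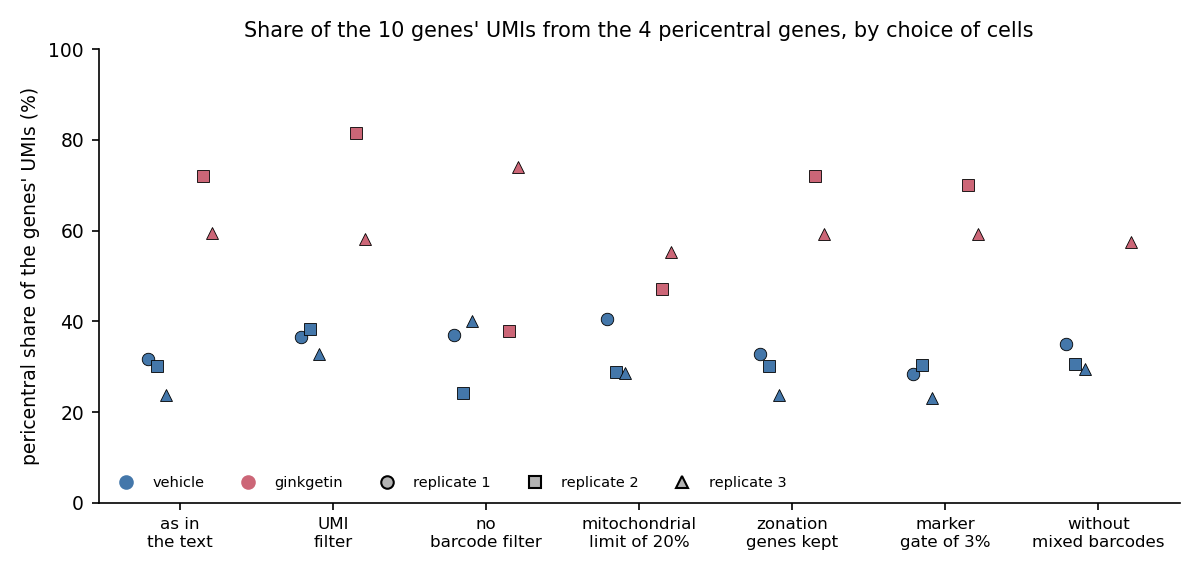
Share of the 10 genes' UMIs that came from the 4 pericentral genes, in percent, for each library with 10 or more hepatocyte-like cells and each choice of cells, vehicle in blue and ginkgetin in red. The ginkgetin libraries lie above the vehicle libraries in 6 of the 7 choices, and with no filter on barcodes ginkgetin replicate 2 at 37.8% lies among them.

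The hepatocyte-like barcodes that the mitochondrial limit removed gave a less even picture. They numbered 25, 11 and 111 in the vehicle libraries and 24 and 26 in the ginkgetin libraries, with median depths of 14160, 13545 and 48303 UMIs against 5231.5 and 1910 UMIs. Their pericentral share was 39.1, 8.0 and 44.6% in the vehicle libraries and 28.6 and 88.7% in the ginkgetin libraries, so that ginkgetin replicate 2 lay within the vehicle range and ginkgetin replicate 3 above it. Cyp2e1 was at 587, 277 and 1375 CPM against 1338 and 5876 CPM, and Glul at 571, 47.9 and 991 CPM against 522 and 6276 CPM. Both overlapped between groups in these barcodes.

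A level in CPM over a library can come from more cells with the transcript or from more of it in each cell. To compare shares of cells at 1 depth, each cell was thinned to 1000 UMIs, which left out 10 cells of vehicle replicate 3 and 41 cells of ginkgetin replicate 3 that were shallower. Glul was then found in 11.1, 19.0 and 20.8% of cells of the vehicle libraries and in 50 and 39.7% of those of the ginkgetin libraries. The unthinned shares were 20, 30.5 and 34.1% against 58.3 and 42.4%. Cyp2e1 was found in 11.1, 16.2 and 24.5% against 58.3 and 51.1% after thinning, and in 40, 34.3 and 48.2% against 66.7 and 56.4% before it. Oat was found in 2.22, 18.1 and 20.4% against 50 and 47.3% after thinning. Cyp1a2 was found in 2.22, 0.952 and 3.70% against 25 and 14.5%. These shares did not overlap between groups. Cells named T cell-like were set beside them, at median depths of 2652.5 to 6338 UMIs. Their thinned shares over the 6 libraries were 2.90 to 4.71% for Glul, at most 2.08% for Cyp2e1, 1.89 to 4.15% for Oat and at most 0.389% for Cyp1a2. In ginkgetin replicate 1, which held 0 hepatocyte-like cells, they were 2.90% for Glul, 1.89% for Oat and 0% for Cyp2e1 and Cyp1a2. Whether the Glul and Oat UMIs are the T cell-like cells' own was not tested. The hepatocyte-like share of Oat in vehicle replicate 1 was within the T cell-like range, and Cyp1a2 in vehicle replicates 1 and 2 rested on 1 cell each.

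Among the periportal genes, Ass1 was found in 55.6, 71.4 and 72.7% of thinned hepatocyte-like cells of the vehicle libraries and in 41.7 and 57.3% of those of the ginkgetin libraries. Hal was found in 0, 0.952 and 6.94% against 8.33 and 32.8%. Before thinning Hal was found in 8.89, 6.67 and 21.2% against 25 and 40.7%. The share of Hal in ginkgetin replicate 2 was 1 cell of 12, so the larger share rested on ginkgetin replicate 3.

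Glul was packed into few cells of the vehicle libraries and spread over more cells of the ginkgetin libraries. The richest 10% of cells, rounded up to 5, 11 and 23 cells, held 95.6, 93.2 and 86.7% of its UMIs in the vehicle libraries. The 2 and 18 richest cells of the ginkgetin libraries held 50.4 and 55.3%. In vehicle replicate 1, 1 cell alone held 63 of the 113 UMIs. Cells with 5 or more Glul UMIs were 3 of 45, 11 of 105 and 29 of 226 in the vehicle libraries (6.67, 10.5 and 12.8%) and 5 of 12 and 59 of 172 in the ginkgetin libraries (41.7 and 34.3%), although the cells of ginkgetin replicate 3 were the shallowest. Each such cell count is unthinned.

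The Glul-rich cells held more Oat and less Ass1, Pck1 and Sds than the remaining hepatocyte-like cells, in each of the 5 libraries. Oat stood at 812, 2880 and 2734 CPM in the Glul-rich cells of the vehicle libraries and at 40.8, 137 and 88.5 CPM in their other hepatocyte-like cells. In the ginkgetin libraries Oat stood at 2419 and 4585 CPM in the Glul-rich cells and at 527 and 438 CPM in the others. The latter values were above those of the other cells of any vehicle library. The cut of 5 UMIs is a higher Glul level in a shallower cell, and median depth was 2655 and 1379.5 UMIs against 3174 to 3794 UMIs. The split was thus not at the same Glul level in both groups, and Oat and Cyp2e1 outside the Glul-rich cells were not compared at equal depth. Cyp2e1 was also higher in the Glul-rich cells, except in vehicle replicate 1. Outside the Glul-rich cells it stood at 133, 139 and 195 CPM in the vehicle libraries and at 284 and 850 CPM in the ginkgetin libraries, and inside them at 67.6, 533 and 583 CPM against 3508 and 4227 CPM. The lowest of these values rested on 1 UMI. Ass1 had 0 UMIs in the Glul-rich cells of vehicle replicates 1 and 2 and ginkgetin replicate 2, 3 UMIs in those of ginkgetin replicate 3 and 104 in those of vehicle replicate 3. Hal, Sds and Cyp2f2 had 0 UMIs in the Glul-rich cells of each of the 5 libraries. A count of 0 allows up to 203, 64.0 and 21.1 CPM in the Glul-rich cells of the vehicle libraries and 181 and 28.3 CPM in those of the ginkgetin libraries, so a lower level than in the other cells was not detectable for Hal, Cyp2f2 and Cps1 in vehicle replicates 1 and 2, nor for Hal and Cps1 in ginkgetin replicate 2.

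**Figure D3:**
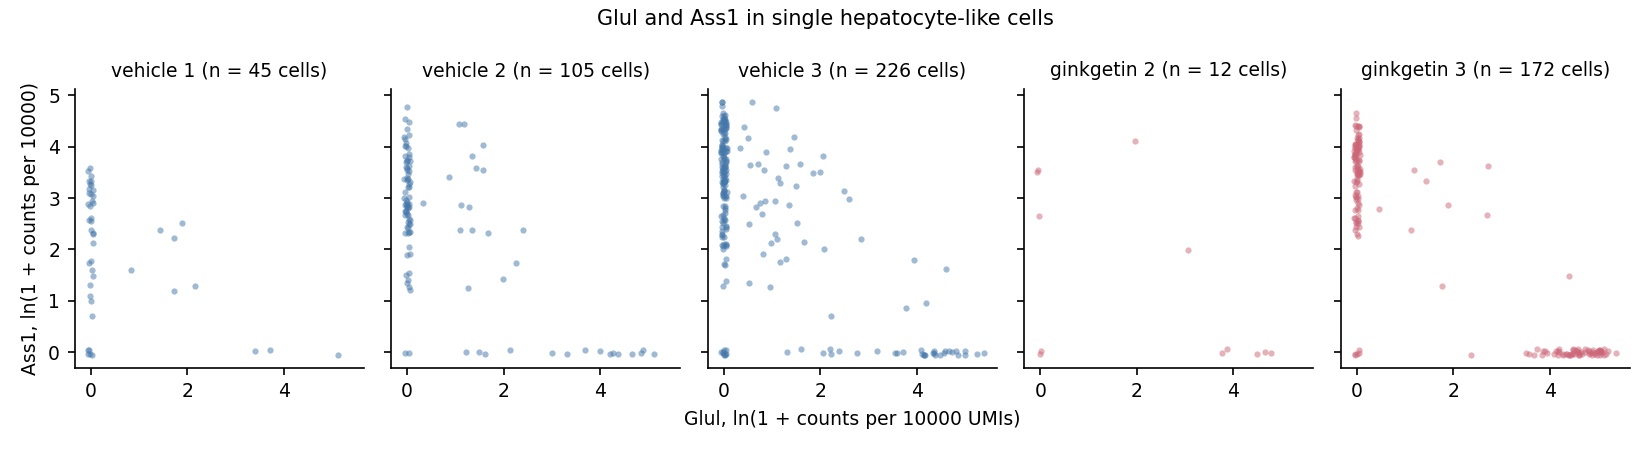
Each point is 1 hepatocyte-like cell, with Glul on the horizontal and Ass1 on the vertical axis, both as the natural log of 1 plus counts per 10000 UMIs, moved by a small random step so that cells at 0 can be seen. The 11 of 105 cells of vehicle replicate 2 and 59 of 172 of ginkgetin replicate 3 with 5 or more Glul UMIs held 0 and 3 Ass1 UMIs in all, whereas the 29 such cells of vehicle replicate 3 held 104.

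The 10 genes sorted into their zones over single cells. Pearson's r of the natural log of 1 plus counts per 10000 UMIs was taken over the cells of vehicle replicate 2, vehicle replicate 3 and ginkgetin replicate 3, the libraries with 50 or more hepatocyte-like cells (503 cells), and averaged with equal weight. It is a description, since cells of 1 library share their depth and preparation, and shares of 1 total lower each other. Glul and Oat had a mean r of 0.77 (0.68 to 0.83 over the 3 libraries). Glul and Cyp2e1 had 0.46 (0.32 to 0.72), and Cyp2e1 and Oat 0.47 (0.23 to 0.79). Cyp1a2, with few UMIs, had 0.17 to 0.24 with the other pericentral genes. Across zones each of the 24 means was negative, the strongest being Glul with Ass1 at -0.74 (-0.89 to -0.66) and Oat with Ass1 at -0.70 (-0.87 to -0.61). Among periportal genes each of the 15 means was positive, from 0.18 for Cyp2f2 with Cps1 to 0.56 for Ass1 with Pck1.

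**Figure D4:**
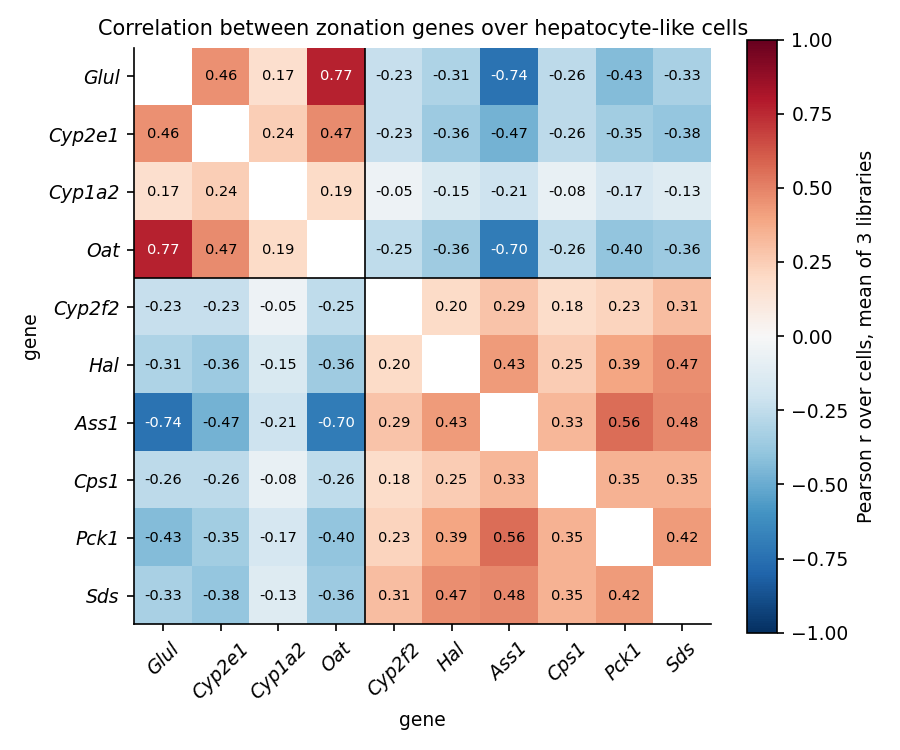
Mean Pearson r between each pair of zonation genes over single hepatocyte-like cells of 3 libraries (503 cells), red for positive and blue for negative, with lines between the pericentral genes (first 4) and the periportal genes. The pericentral and periportal blocks are positive and the blocks between them negative, from Glul with Oat at 0.77 to Glul with Ass1 at -0.74.

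The genes most like a member were looked up among the 1810 genes with a UMI in at least 20% of these cells, by the same mean r. Those nearest to Glul were Oat (0.77), Gstm2, a glutathione transferase (0.49), and Blvrb, a biliverdin reductase (0.46). Those nearest to Cyp2e1 were Oat (0.47), Glul (0.46) and Rgn, the lactonase regucalcin (0.45). Those nearest to Cyp1a2 were Cyp2c50, Cyp2e1 and Lect2, at 0.24 to 0.25. On the periportal side, the genes near Hal included Sds (0.47) and Ass1 (0.43), and those near Sds included Ass1 (0.48) and Hal (0.47). Cyp2f2 was nearest to the secreted-protein genes Serpina1e, Ahsg and Cfhr2, at 0.31 to 0.32.

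Other genes of each zone and of the same pathways were read from fixed lists, and none was called in the unblocked fit. Of 17 further pericentral genes 15 were tested, of which 8 had an unadjusted p under 0.05 with higher levels in the ginkgetin libraries and 0 with lower levels, against 8.61% and 5.23% of all genes tested. The median log2 fold change was 1.70 against -0.02 over all genes. Cyp2c37, Cyp2c54 and Slc1a2, which are among the 8, passed the low count filter only through the ginkgetin libraries, so they had to stand higher there and the count and median over the list are given as a description. The 3 most abundant of them did not share this direction. Gstm1 (log2 fold change -0.54, adjusted p 0.650 in edgeR), Gsta3 (-0.42, adjusted p 0.687) and Rgn (-0.72, adjusted p 0.507) overlapped between the groups. With the replicate block 4 genes of the list were called (1.96% of all genes), with the barcode set block 5 (1.85%) and by DESeq2 6 (1.97%), all of them P450 enzymes or transporters, and those named next were chosen after their values were seen. In the fit with the replicate block 6 genes of the list passed the filter only through the ginkgetin libraries. The 4 called there, Cyp2a5, Cyp2c37, Cyp2c54 and Slc1a2, were all among these 6. They had to stand higher there, so that count is a description too. Cyp2a5 stood at 38.0, 19.8 and 31.9 CPM against 583 and 136 CPM (log2 fold change 3.37, adjusted p 0.264 in edgeR, 0.00888 with the replicate block). Cyp2c37 stood at 9.49, 19.8 and 4.31 CPM against 340 and 58.6 CPM (3.83, adjusted p 0.290, 0.0024 with the replicate block). Cyp2c54 had 0 UMIs in all 3 vehicle libraries and 146 and 66.6 CPM in the ginkgetin libraries, at least 46.5-fold higher over the pooled ginkgetin libraries against 3 counts over the vehicle group, and with it at that bound the median was 1.70. These Cyp2c and Cyp2a genes have near-identical relatives, and how reads were shared between them is not stated.

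Of 16 further periportal genes 13 were tested, with 3 higher and 0 lower at an unadjusted p under 0.05 and a median log2 fold change of 0.10. The barcode set block and DESeq2 called 0 of the list, and the replicate block called 1, Etnppl. It stood at 9.49, 3.95 and 16.4 CPM against 24.3 and 168 CPM (log2 fold change 3.05, adjusted p 0.0240 in edgeR with the replicate block). In ginkgetin replicate 2 it rested on 1 UMI. Etnppl passed the filter of that fit only through the ginkgetin libraries. The most abundant was Fbp1, the fructose bisphosphatase of glucose production, at 1229, 1113 and 2047 CPM against 437 and 1050 CPM. Both ginkgetin libraries lay below the vehicle libraries for it (-1.06, adjusted p 0.384 in edgeR). Otc (-0.37, adjusted p 0.813), which joins ornithine to carbamoyl phosphate, overlapped. Of the 8 urea cycle genes, Ass1 and Otc among them, 0 had an unadjusted p under 0.05 and the median was 0.05. Of the 4 gluconeogenesis genes, with Fbp1, Pck1 and Pcx (0.27, adjusted p 0.913) the most abundant, 0 had one and the median was 0.19. Of the 9 genes of ammonia and amino acid handling, which include Glul, Oat, Hal and Sds, 6 were higher and 0 lower at that level (8.61% and 5.23% of all genes), with a median of 1.29. Glul, Oat and Hal, described above, are 3 of those 6, and Hal and Sdsl passed the low count filter only through the ginkgetin libraries. Glud1, the glutamate dehydrogenase, stood at 607, 482 and 859 CPM against 389 and 948 CPM (-0.05, adjusted p 0.981).

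Of the 4 genes of the middle of the lobule, 1 was higher and 1 lower at an unadjusted p under 0.05, with a median log2 fold change of -1.17. The lower was Hamp. Hamp makes hepcidin, the hormone that limits iron uptake. It stood at 2140, 1683 and 1617 CPM in the vehicle libraries and at 72.9 and 466 CPM in the ginkgetin libraries, without overlap. EdgeR gave a log2 fold change of -2.75 (SE 0.70, adjusted p 0.290 in edgeR), and -2.91 with the replicate block (adjusted p 0.0105). Its near-identical copy Hamp2, which may share reads with it, stood at 109, 172 and 436 CPM against 0 and 90.6 CPM (-2.06, adjusted p 0.383 in edgeR, and called lower at -2.76 with the replicate block, adjusted p 0.0132). Igfbp2 overlapped (-0.29, adjusted p 0.826). The higher was Cyp8b1, a P450 enzyme of bile acid synthesis, at 4.75, 19.8 and 18.1 CPM against 48.6 and 55.9 CPM (1.66, adjusted p 0.356 in edgeR), named after its values were seen, and it passed the low count filter only through the ginkgetin libraries. Of the 7 Wnt target genes, 0 passed the filter on low counts. Tbx3 had 9.49, 1.98 and 13.8 CPM against 24.3 and 29.3 CPM, Axin2 0, 0 and 3.45 CPM against 0 and 23.98 CPM, and Nkd1 0, 0 and 3.45 CPM against 0 and 21.3 CPM. The groups did not overlap for Tbx3 and did for Axin2 and Nkd1. In ginkgetin replicate 2, with 41179 UMIs, Tbx3 rested on 1 UMI and Axin2 and Nkd1 on 0, too few to place that library. Of 9 genes of the dissociation stress response 7 were tested, with 1 higher and 0 lower at an unadjusted p under 0.05 and a median of 0.17. The higher was Egr1, named after its values were seen, at 4.75, 0 and 9.49 CPM against 72.9 and 42.6 CPM (3.15, adjusted p 0.341 in edgeR), which passed the low count filter only through the ginkgetin libraries. Junb (1.33, adjusted p 0.367), Jun (0.17, adjusted p 0.916) and Fos (0.65, adjusted p 0.812) were the most abundant, and the summed stress level was 517, 202 and 347 CPM against 534 and 456 CPM.

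The last comparison placed the 10 genes across the cell classes. Over all libraries each had its highest mean in hepatocyte-like cells, and some were also found elsewhere. For Oat this order held through the ginkgetin libraries, since in the vehicle libraries its mean was 299.8 CPM in hepatocyte-like and 322 CPM in stellate-like cells. Oat stood at 759 ± 651 CPM in hepatocyte-like cells (SD, n = 5 libraries) and next at 276 ± 69.6 CPM in stellate-like cells (SD, n = 6), which store vitamin A and make matrix, and at 64.9 ± 15.8 CPM in macrophage-like cells. The hepatocyte-like and stellate-like means of Oat lay closer than the hepatocyte-like spread, whereas stellate-like and macrophage-like cells were further apart than their spread. Glul stood at 1602 ± 1230 CPM in hepatocyte-like cells and next at 315 ± 72.1 CPM in endothelial-like and 280 ± 149 CPM in macrophage-like cells, which did not differ beyond their spread. Ass1 came next in dendritic-like cells (74.8 ± 23.1 CPM), Hal in stellate-like cells (25.4 ± 23.1 CPM) and Sds in cholangiocyte-like cells (9.93 ± 5.48 CPM). Cyp1a2, Cyp2f2 and Cps1 had means of at most 2.23 CPM in each other class, so the transcript was close to absent outside hepatocyte-like cells.

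**Figure D5:**
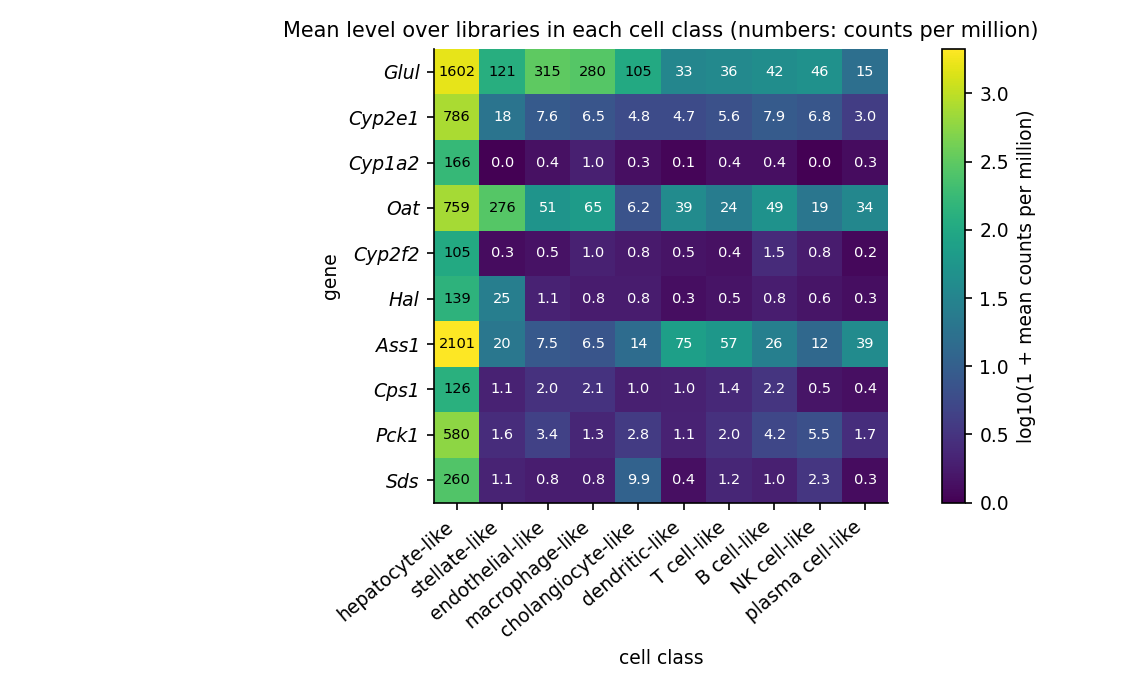
Mean level of each zonation gene in each cell class over the libraries with 10 or more cells of that class, shaded by log10 of 1 plus CPM and printed as CPM. Over all libraries each gene is highest in hepatocyte-like cells, although Oat in the vehicle libraries alone is at 299.8 CPM there and 322 CPM in stellate-like cells.

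Where a member was abundant enough in another class, its level was compared between the groups there, and no member was called higher. The stellate-like class held 2 clusters. Cluster 27 (led by Gsn, Igfbp6 and Dpt) had 52 of its 120 vehicle cells and 53 of its 166 ginkgetin cells. Cluster 28 (led by Dcn and Colec11) had the rest, and members were not compared in each cluster apart. In stellate-like cells Glul stood at 124, 196 and 128 CPM in the vehicle libraries and at 70.0, 94.4 and 112 CPM in the ginkgetin libraries, each ginkgetin library below each vehicle library (log2 fold change -0.68, SE 0.32, adjusted p 0.857 in edgeR). Oat there stood at 238, 378 and 350 CPM against 210, 245 and 236 CPM and overlapped (-0.49, SE 0.31, adjusted p 0.879). The test called 0 of 4719 genes (0.0%) in stellate-like cells, with 261 at an unadjusted p under 0.05, 3 called by DESeq2 and 25 (0.53%) called with the replicate block, neither member among them. The endothelial-like class was made of different clusters in the 2 groups. Of its 1951 vehicle cells 1517 were in cluster 0 (led by Fabp4 and Lyve1), and of its 5248 ginkgetin cells 5051 were in clusters 2 (Pde2a), 3 (Ntn4) and 30 (Selenop), each over 90% from 1 group. Glul in it stood at 291, 295 and 364 CPM against 253, 249 and 435 CPM (-0.21, SE 0.20, adjusted p 0.731) and overlapped, and 0 of 5 members were called against 44 of 10246 genes (0.429%), or 450 (4.39%) with the replicate block. In cholangiocyte-like cells 0 of 2 members, Glul and Ass1, were called against 14 of 7947 genes (0.176%), or 195 (2.45%) with the replicate block.

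The macrophage-like class also came from different clusters. Of its 3150 vehicle cells 3123 were in clusters 9, 10, 11, 14 and 31, led by genes such as Fabp7, Ms4a7 and Mmp12, and of its 892 ginkgetin cells 773 were in clusters 13 and 33, led by Cd163 and Marco. Values of the class thus set different populations of macrophage-like cells side by side. In it 1 of 4 members tested was called, against 1046 of 10161 genes (10.3%), 494 of them (4.86%) lower, and 1599 (15.7%) with the replicate block. It was Ass1, a gene that activated macrophages use to rebuild arginine. Ass1 stood at 7.44, 10.4 and 15.4 CPM in the vehicle libraries, and at 0, 4.54 and 0.960 CPM in the ginkgetin libraries, which rested on 0, 3 and 2 UMIs. The 0 of 343640 UMIs in ginkgetin replicate 1 allows a level of up to 8.73 CPM. Each ginkgetin library was below each vehicle library, with a log2 fold change of -3.17 (SE 0.70, adjusted p 0.0315 in edgeR) and of -3.45 with the replicate block (adjusted p 0.00257). The call was lost when vehicle replicate 1 (adjusted p 0.128) or 2 (0.169), or ginkgetin replicate 1 (0.0811), 2 (0.0651) or 3 (0.126), was left out in edgeR, and with the mitochondrial limit at 20% (log2 fold change -0.51, adjusted p 0.757). It was also lost in edgeR with no barcode filter (adjusted p 0.1996), no low count filter (0.0583), zonation genes kept (0.0551) and replicates 1 and 2 alone (0.108), and with the UMI filter Ass1 did not pass the filter on low counts. Glul in macrophage-like cells stood at 198, 213 and 191 CPM against 250, 247 and 579 CPM, higher in each ginkgetin library (log2 fold change 0.33, SE 0.30, adjusted p 0.491), and ginkgetin replicate 3 stood apart.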

How the data were processed

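In the 6 deposited tables the values are UMI counts of each gene in each cell barcode (10x Genomics), with no normalization. Per the submitters' processing notes the build was GRCm38 (mm10), and the aligner is not given in the sources used here. The tables held 33168 barcodes with at least 501 genes each and 13128697 to 61796882 UMIs per library. No other columns of samples were left unused (0).

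The study states a range of 250 to 5000 UMIs and under 5% mitochondrial UMIs. Read as UMIs it kept 16821 barcodes, and read as genes detected, the main choice because it came closer to the study's cell total, 27544. Cells were clustered in scanpy 1.11.5 (python 3.11.15, leidenalg 0.10.2) on 2000 variable genes without the zonation genes, 30 components, 15 neighbours and resolution 1, libraries together, and named from 82 markers of 13 classes. A name needed 3 markers, each in 25% of cells at 2 times the other cells. No doublet caller was run, and whether doublets were removed before deposit is not stated. Counts were summed per library and class (10 or more cells) and compared between groups, over all libraries of the class, by the quasi-likelihood test of edgeR 4.0.16 (R 4.3.3) after filterByExpr and TMM scaling with no covariate, with adjusted p under 0.05 and a fold over 2 as the call. DESeq2 1.42.0 was an alternative. The log2 fold changes carry edgeR's prior count of 0.125, and the SE is the log2 fold change over the root of the F statistic. The script was tested on simulated data.

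Replicate numbers were checked for pairing. Same-numbered libraries deviated together in each of the 4 classes with 3 pairs (r 0.338 to 0.912), and the 2 pairs in hepatocyte-like cells had r of 0.309 and 0.541, where the deviations of the only 2 ginkgetin libraries mirror each other, so that each vehicle library has opposite r with them. Libraries of replicates 1 and 2 with different numbers agreed about as well in some classes (0.461 for vehicle 1 with ginkgetin 2 in hepatocyte-like cells, and 0.424 for vehicle 2 with ginkgetin 1 in macrophage-like cells), so this check does not separate the replicate number from the barcode set. The replicate block was an alternative, since the study states none. Replicate 3 of both groups used other gene symbols, with 369 genes of 100 or more UMIs found in replicates 1 and 2 only and 506 in replicate 3 only, and 0 of these were zonation genes. The zonation genes and lists were chosen with earlier results of these data known. Genes named are the 10 zonation genes, in each list those called and the 3 most abundant, and the 3 most like a member, except for 1 gene that is not reported here. Limits for a count of 0 (3 counts) cover counting error only. Plots used matplotlib 3.10.9.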

Additional observations from a re-analysis of the deposited data

Results flagged for a closer look

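Glul went opposite ways in different cell classes. It was higher in each ginkgetin library than in each vehicle library in hepatocyte-like cells (log2 fold change 1.91) and in macrophage-like cells (0.33), and lower in each in stellate-like cells (-0.68). The difference between the classes was not tested, and none of the 3 values passed the threshold in the unblocked edgeR fit. The macrophage-like and stellate-like classes were made of their clusters in different shares between the groups. In hepatocyte-like cells Glul passed with the barcode set block (adjusted p 0.0126) and by DESeq2 (1.62e-07). The macrophage-like value turned to -0.11 in replicates 1 and 2 alone and to -0.082 without ginkgetin replicate 3.

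The hepatocyte-like barcodes with 5% or more mitochondrial UMIs, which the main comparisons do not use, held 3 of the 10 members whose lowest ginkgetin library lay above the highest vehicle library. Oat was at least 350 CPM in the ginkgetin libraries against at most 303 CPM in the vehicle libraries, Cyp1a2 at least 153 CPM against at most 141 CPM, and Hal at least 228 CPM against at most 97.7 CPM. The margins for Oat and Cyp1a2 were small, and 10.5% of the 4054 genes tested lay above in the same way in these barcodes. No test was run on them. Groups held 3 libraries at most, so no library was tested for standing apart from its group.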

How the results depend on the processing

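Depth was a limit in hepatocyte-like cells, where ginkgetin replicate 2 held 41179 UMIs in 12 cells and ginkgetin replicate 1 held none. The 6 members whose groups did not overlap kept a positive log2 fold change in hepatocyte-like cells under each of the 18 alternatives fitted. The lowest and highest were 1.35 and 2.14 for Glul, 1.54 and 3.43 for Cyp2e1, 2.68 and 5.86 for Cyp1a2, 1.5 and 2.53 for Oat, 0.78 and 2.30 for Cyp2f2 and 1.19 and 4.12 for Hal. These 6 were picked by their gap in the same libraries, so in fits that reuse those sums the sign was largely set beforehand. Their common sign is given as a description. The call depended on the model. Of the 10 members 0 were called in the unblocked fit, 3 with the replicate block, 5 with the barcode set block, 5 by DESeq2, 4 with no low count filter and 5 in replicates 1 and 2 alone, among 0, 90, 75, 80, 163 and 152 genes called, and 1 gene was called with a mitochondrial limit of 20%. Cyp1a2 and Hal entered the filtered fits with blocks and DESeq2 only through the ginkgetin libraries, and were also called with no low count filter. Without 1 library at a time 0 members were called and 0 to 1 genes, and 0 of either without mixed barcodes or with 30 or more cells (which leaves out ginkgetin replicate 2). A lone ginkgetin library was in these fits assumed to vary like the vehicle libraries. The difference in pericentral share was 22.2 percentage points with no barcode filter, 18.6 with the 20% limit and 25.8 without mixed barcodes, and 31.0 to 43.5 without 1 library. The 10% marker gate left 64 hepatocyte-like cells.

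Macrophage-like cells had 0 members called with the UMI filter, the 20% limit, no barcode filter, no low count filter, zonation genes kept, and replicates 1 and 2 alone, and 0 to 1 without 1 library. The replicate block changed no other call of a member. Directions turned for values that were not called. Sds in hepatocyte-like cells was 0.14 with the UMI filter, 0.010 in replicates 1 and 2 alone and -0.64 to 0.12 without 1 library, and Ass1 was 0.088 without mixed barcodes. Without 1 library Cps1 was 0.09 to 2.21, Pck1 0.37 to 1.53 and Ass1 -1.29 to -0.10, with no turn. In endothelial-like cells Cyp2e1 was -0.0025 with the barcode set block, -0.062 with the 20% limit and -0.28 with the replicate block, and without 1 library it was -0.98 to 0.47, Ass1 -0.66 to 0.0066 and Oat -0.41 to 0.12. In macrophage-like cells Glul was -0.11 in replicates 1 and 2 alone, Oat -0.0021 by DESeq2 and -0.0070 with the barcode set block, and without 1 library Glul was -0.082 to 0.50, Oat -0.19 to 0.26 and Cyp2e1 -1.66 to 1.12. Ass1 in cholangiocyte-like cells was -0.44 to 0.45. The cause was not tested.

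Fits of hepatocyte-like cells under the 10% gate and of cholangiocyte-like cells under the UMI filter were not run because a group held 0 libraries. The 3% marker gate, the removal of mixed barcodes and the use of replicates 1 and 2 alone were chosen after seeing the data.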

Other observations

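The periportal genes in the barcodes removed by the mitochondrial limit stood as follows, without a test. Cps1 was at 934, 728 and 804 CPM in the vehicle libraries and at 1811 and 155 CPM in the ginkgetin libraries, so that its level there was above that of the kept cells in each vehicle library. Ass1 was at 393, 1744 and 1426 CPM against 988 and 900.3 CPM, and Cyp2f2 at 153, 388 and 233 CPM against 1166 and 267 CPM. Pck1 was at 555, 984 and 670 CPM against 1320 and 422 CPM, and Sds at 178, 521 and 263 CPM against 295 and 134 CPM. For Cps1 and Pck1 the ginkgetin libraries lay on both sides of the vehicle libraries, and for Cyp2f2 1 lay above them and 1 within their range.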
